A study of Macaca mulatta with 24 samples.

Results

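Neurexins, neuroligins and cell adhesion molecules of the CADM family hold the presynaptic and postsynaptic membranes together, and 9 of their genes were examined in RNA-Seq data from the nucleus accumbens (NAcc) core of 24 rhesus macaques. The genes are NRXN2 and NRXN3 (neurexins), NLGN1, NLGN2 and NLGN3 (neuroligins) and CADM1, CADM2, CADM3 and CADM4. They were chosen by symbol and function from the 17208 gene symbols measured, with earlier results of these data known. All 9 averaged 1 TPM or more (TPM is a gene's length-corrected share of a library, scaled to the same total in each), as did 13637 symbols in all, and so were tested in every comparison. The clearest difference lay inside the heavily drinking animals. In very heavy drinkers (VHD), 5 of the 9 genes were lower than in heavy drinkers (HD) at an adjusted p under 0.05, with a log2 fold change of −1.56 for CADM3, where 14.6% of all genes tested passed (11.4% were lower). That count was 0 when all 24 animals shared 1 estimate of the spread, 1 with a neuron marker score as a covariate and 2 to 8 without single animals. Over all genes tested the counts in those fits were 0, 376 and 476 to 4651, against 1997 in the main fit. No gene of the 9 passed the same threshold in these fits of TPM when all heavy drinkers were compared with controls or with low drinkers. The study's own test of counts called many genes for heavy drinkers against controls and listed NLGN1 among the lower ones. It also reported genes that differed between HD and VHD animals, with synapse terms enriched among those higher in HD.

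Neurexins sit in the presynaptic membrane and bind neuroligins across the cleft. Each neurexin gene makes long and short proteins from separate promoters, which a value per gene does not tell apart. Among the neuroligins, NLGN1 is known mainly from excitatory synapses, NLGN2 from inhibitory synapses and NLGN3 from both. The CADM proteins, also called SynCAMs or nectin-like molecules, carry immunoglobulin domains and bind each other between cells. They act at synapses and, in the case of CADM4, also in the wrapping of axons by myelinating glia. Most neurons of the NAcc are medium spiny neurons, which release GABA and receive glutamatergic input from cortex, thalamus and amygdala.

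The animals were unrelated adult male macaques. Drinkers were first induced to drink ethanol with schedule-induced polydipsia and then had open access to 4% ethanol and to water for 22 h per day over 12 months, while controls were given maltose dextrin solution in place of ethanol. Categories followed from what each animal chose to drink, so they were not assigned treatments. The 8 low drinkers (LD*), labelled LD and described in the study's methods as pooling low with binge drinkers, took in 1.58 ± 0.53 g/kg of ethanol per day and the 8 heavy drinkers (HD*) took in 3.14 ± 0.33 g/kg (mean ± SD). HD* is made up of 4 HD animals with 2.92 ± 0.163 g/kg and 4 VHD animals with 3.37 ± 0.293 g/kg, and their intakes touched at 3.09 g/kg. All animals were necropsied without imposed abstinence, and the dissected block held neurons and glia together.

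The animals came from 4 cohorts. Controls numbered 3 in cohort 5, 2 in cohort 7a and 3 in cohort 7b. The LD* animals numbered 2, 3 and 3 in cohorts 4, 7a and 7b, and cohorts 5 and 7a each held 4 HD* animals, 2 HD and 2 VHD. Each animal gave 1 library, so replicates are separate animals. The values are TPM made by the authors, every library sums to between 999998 and 1000000, and how many reads lie behind a value cannot be read from them. At least 97.9% of the positive values in a library were distinct, so a read did not have the same worth for every gene, as it would in counts scaled by library alone. Striatal neuron markers were present in every animal, but in Control 6, from cohort 7b, the 10 markers summed to 822 TPM against at least 3382 TPM in the other 23 animals. PPP1R1B, which encodes DARPP-32, stood at 304 TPM there against a mean of 2497 TPM over the 24 animals. The 7 oligodendrocyte markers summed to 9493 TPM in Control 6, above every other animal. Differences from controls are therefore also given without it. Markers of cortical projection neurons also varied, and SLC17A7 ran from 0.866 to 722 TPM.

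TPM values are per gene length, so levels can be compared between genes as far as the lengths used, which are not given, were right. CADM3 was the most abundant of the 9 (397 TPM, mean over 24 animals), followed by CADM4 (274), NRXN2 (195), NLGN2 (146), NLGN3 (130) and CADM1 (100.1). NRXN3 (43.4), CADM2 (21.5) and NLGN1 (21.3) were lower. CADM3 lay above 97.5% of the 17208 symbols measured and NLGN1 above 61.7% of them. Each gene in this order was on average higher than the next within the animals (sign-flip permutation test on log2(TPM + 1), two-sided, adjusted p of at most 0.04 over 8 neighbours), except CADM2 and NLGN1. The order tested was taken from the means of these same values. CADM2 was above NLGN1 in 13 of 24 animals, with a mean difference of 0.041 ± 0.27 on the log2 scale (SD, adjusted p = 0.467). CADM3 exceeded CADM4 in 17 of 24 animals (adjusted p = 0.04) and NLGN2 exceeded NLGN3 in 16 of 24 (sign-flip test, adjusted p = 0.019), while CADM4 exceeded NRXN2 in 24 of 24.

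The 9 genes differed in how much they varied between animals. CADM3 had an SD of 0.76 on the log2 scale and spanned 5.27-fold, from 126 TPM in Control 8 to 665 TPM in Control 1. That SD was larger than for 97% of the genes at 10 TPM or more, whose median SD was 0.31. NRXN3 (SD 0.61, 4.27-fold) and NLGN1 (SD 0.51, 3.67-fold) came next. NRXN2 (SD 0.26, 2.00-fold) and CADM4 (SD 0.25, 2.17-fold) varied least and were the only members below the median of the genes at 10 TPM or more. The presynaptic partners NRXN2 and NRXN3 thus lay far apart in spread, between CADM3 at the upper end and CADM4 at the lower.

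**Figure D1:**
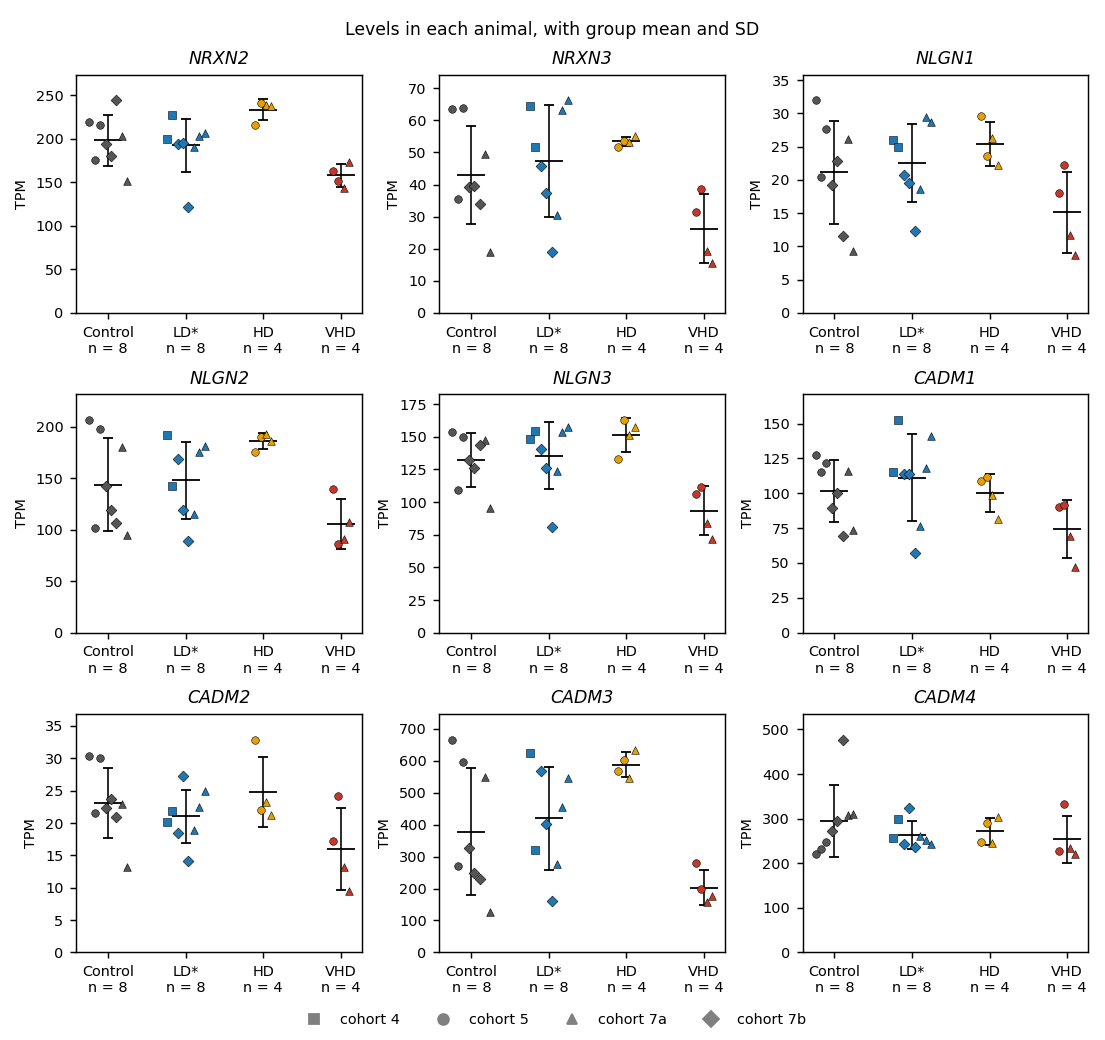
TPM of the 9 genes in each animal (vertical axes, from 0) for controls, LD*, HD and VHD animals (horizontal axes), with marker shapes for cohorts and bars for the group mean and SD. The HD animals cluster tightly near the top for CADM3, NRXN3 and NLGN2, the VHD animals lie below them, and controls and LD* animals spread over most of both ranges.

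Both neurexins were lower in VHD than in HD animals. NRXN2 measured 215, 241, 239 and 238 TPM in the 4 HD animals and 163, 151, 144 and 174 TPM in the 4 VHD animals. NRXN3 measured 51.8, 53.4, 53.2 and 55.2 TPM in HD and 31.5, 38.6, 19.2 and 15.5 TPM in VHD animals. The ranges of the 2 categories did not overlap for either gene, and for NRXN3 the HD animals lay close together while the VHD animals were spread. The log2 fold change was −0.56 (SE 0.12, adjusted p = 0.0123, limma over all genes tested) for NRXN2 and −1.09 (SE 0.24, adjusted p = 0.0152) for NRXN3.

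The 3 neuroligins followed the same direction. NLGN2, the neuroligin of inhibitory synapses, measured 175, 190, 193 and 186 TPM in HD and 140, 85.8, 90.9 and 107 TPM in VHD animals. NLGN3 measured 133, 163, 152 and 158 TPM in HD and 106, 111, 84.2 and 71.7 TPM in VHD animals. NLGN1 measured 29.6, 23.6, 26.3 and 22.2 TPM in HD and 17.99, 22.2, 11.7 and 8.72 TPM in VHD animals. The ranges were apart for all 3, though for NLGN1 the lowest HD animal (22.212 TPM) and the highest VHD animal (22.211 TPM) almost met. NLGN2 (log2 fold change −0.83, SE 0.16, adjusted p = 0.00833) and NLGN3 (−0.71, SE 0.16, adjusted p = 0.0148) passed the threshold and NLGN1 did not (−0.78, SE 0.26, adjusted p = 0.0591, limma).

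Among the CADM genes, CADM3 showed the largest difference and CADM4 the smallest. CADM3 measured 568, 602, 547 and 634 TPM in HD and 279, 198, 157 and 177 TPM in VHD animals. The ranges were far apart, and the log2 fold change was −1.56 (SE 0.17, 95% confidence interval −1.93 to −1.20, adjusted p = 0.00363, limma). CADM1 (−0.46, SE 0.20, adjusted p = 0.141) and CADM2 (−0.66, SE 0.26, adjusted p = 0.103) had overlapping ranges and did not pass. CADM1 measured 109, 112, 99.0 and 81.5 TPM in HD and 89.9, 91.7, 69.3 and 47.2 TPM in VHD animals. CADM2 measured 32.9, 22.0, 23.3 and 21.3 TPM in HD and 17.2, 24.2, 13.2 and 9.47 TPM in VHD animals. VHD 1 and VHD 2 lay inside the HD range for CADM1, and VHD 2 did for CADM2. CADM4 measured 247, 290, 245 and 304 TPM in HD and 228, 332, 233 and 220 TPM in VHD animals, and its interval included 0 (−0.11, 95% confidence interval −0.45 to 0.22, adjusted p = 0.64).

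In all, 5 of 9 genes were lower in VHD animals at an adjusted p under 0.05 and none was higher, against 11.4% and 3.23% of all genes tested. At an unadjusted p under 0.05, 8 of 9 were lower and none higher, against 24.6% and 8.08% of all genes. The ranges of the 2 categories were apart, with VHD lower, for 6 of 9 genes, against 17.9% of all genes with VHD lower and 5.39% with VHD higher. For those 6 the exact permutation test gave p = 0.0286, the smallest value that 70 assignments of 4 and 4 animals allow. The median log2 fold change was −0.71 over the 9 genes and −0.17 over all genes. Scaling the libraries by a trimmed mean of log ratios (TMM rescaling) moved the median of all genes to 0.0058 and the shares to 10.3% lower and 8.58% higher. With it 4 of the 9 passed, namely NRXN3 (−0.89), NLGN1 (−0.59), NLGN3 (−0.50) and CADM3 (−1.36), and CADM4 changed sign to 0.093.

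The direction was the same in both cohorts that held HD and VHD animals, 2 of each per cohort. In cohort 5, VHD animals were lower for 8 of 9 genes, with log2 differences from −1.31 (CADM3) to 0.041 (CADM4). In cohort 7a they were lower for 9 of 9, from −1.82 (CADM3) to −0.27 (CADM4). The count of calls changed with single animals: it was 3 without HD 2, 2 without HD 3, 2 without VHD 3 and 8 without VHD 2. In those fits 681, 607, 476 and 4651 of the 13637 genes tested passed, against 1997 with all 8 animals. CADM3 and NLGN2 passed in all 8 fits that left out an animal. When all 24 animals in 4 categories shared 1 estimate of the spread, 0 of 9 genes passed, as did 0 of all genes tested, and the adjusted p was 0.0555 for NRXN2, NLGN2, NLGN3 and CADM3 (at an unadjusted p under 0.05, 7 of 9 were lower, where 26.5% of all genes were lower and 7.3% higher).

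Most neuron markers were lower in VHD than in HD animals, as these genes were. The 10 striatal neuron markers, all detected, summed to between 9052 and 10650 TPM in HD and between 3382 and 6198 TPM in VHD animals. Their score, the mean over markers of centred log2(TPM + 1), differed by −1.06 between VHD and HD animals (exact permutation, p = 0.0286). The score of 6 general neuron markers (SNAP25, SYT1, RBFOX3, STMN2, GAD1 and GAD2) differed by −0.74 (exact permutation, p = 0.0286), with sums of 2847 to 3371 TPM in HD and 1288 to 2841 TPM in VHD animals. TAC1 of the striatal markers and STMN2 and GAD1 of the general ones overlapped between the categories, and the others were apart. VHD animals held the highest STMN2 (832 against 544 TPM) and GAD1 (275 against 244 TPM). Astrocyte markers summed to 1769 to 3253 TPM in HD and 3917 to 6570 TPM in VHD animals, and their score was higher in VHD by 0.48 (exact permutation, p = 0.0857). Of these markers GFAP alone had ranges apart, at 548.5 to 1641 TPM in HD and 2277 to 4037 TPM in VHD animals. AQP4, SLC1A3, ALDH1L1, GJA1 and SLC1A2 overlapped between the categories. Microglia markers summed to 193 to 265 TPM in HD and 264 to 438 TPM in VHD animals (score higher by 0.56, exact permutation, p = 0.0857). Scores of endothelial and mural cells were lower in VHD by −0.27 (exact permutation, p = 0.0286), and those of oligodendrocyte precursors differed by −0.49 (exact permutation, p = 0.171). Oligodendrocyte scores differed by −0.035 (exact permutation, p = 0.8). With the general neuron score as a covariate, 1 of 9 genes passed, CADM3 (−1.24, SE 0.23, adjusted p = 0.0417), where 0.858% of all genes were lower and 1.9% higher. There the median over all genes was 0.21, against −0.17 without the score, and the median of the 9 was −0.18. NRXN2 stood at −0.62 (adjusted p = 0.0526) and NLGN2 at −0.85 (adjusted p = 0.0709), and NRXN3 moved to −0.18 (adjusted p = 0.368). With striatal neuron and oligodendrocyte scores as covariates 0 of 9 and 0 of all genes passed. In that fit the median of the 9 was −0.75, 8 of 9 were lower and the SEs rose from between 0.12 and 0.26 to between 0.80 and 1.59, so differences of the size seen without the scores could not be told from 0. NRXN3 stood at −1.51, NLGN1 at −1.79, CADM3 at −0.13 and NLGN2 at 0.37. In bulk tissue fewer cells of a type and less RNA per cell cannot be told apart, and the part of the markers in these differences was not tested beyond those covariates.

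**Figure D2:**
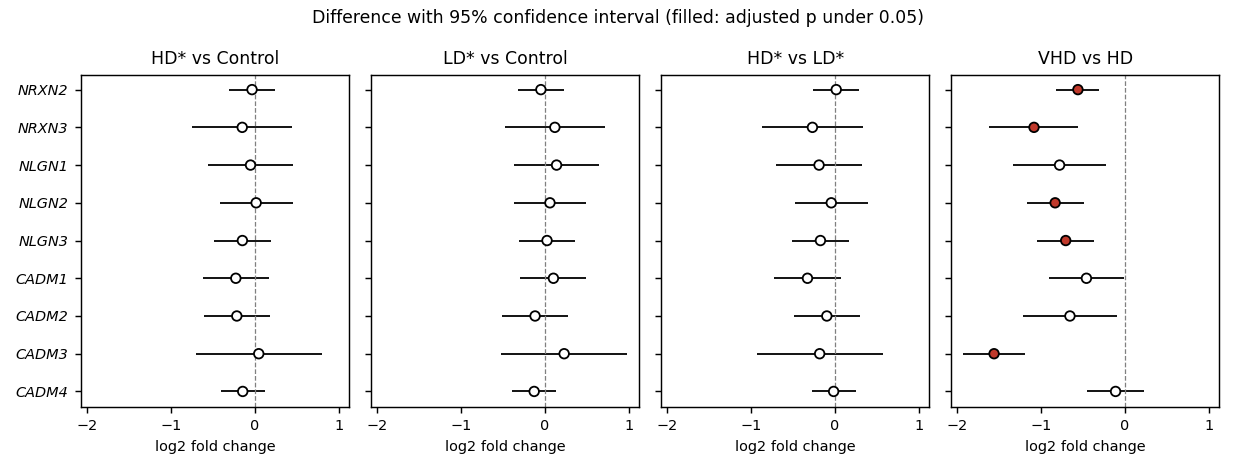
Log2 fold changes (horizontal axes) of the 9 genes with 95% confidence intervals in 4 comparisons, filled where the adjusted p was under 0.05. The 5 filled points are all in the VHD against HD panel, to the left of 0, and every interval in the other 3 panels includes 0.

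Heavy drinking as a whole was compared with control animals to ask whether chronic ethanol intake went with altered adhesion genes. With HD* and LD* animals each set against controls and against each other, 0 of 9 genes passed an adjusted p of 0.05 in any of the 3 comparisons, where 0% of all genes did (limma). At an unadjusted p under 0.05 there were 0 of 9 genes in each, against 775, 387 and 147 of all genes. Those were 2.54% lower and 0.293% higher for LD* animals against controls and 0.748% lower and 0.33% higher for HD* against LD* animals. With cohort as a covariate CADM1 was at −0.52 for HD* against LD* animals (SE 0.21, adjusted p = 0.641), with an unadjusted p under 0.05, where 3.89% of all genes were lower and 0.924% higher, and it also had one without LD 5 (−0.46). In cohorts 7a and 7b alone CADM4 was at −0.33 for LD* animals against controls (SE 0.15, adjusted p = 0.908), with an unadjusted p under 0.05, where 4.0% of all genes were lower and 0.528% higher. HD* animals against controls gave log2 fold changes from −0.23 (CADM1, SE 0.19) to 0.046 (CADM3, SE 0.36). CADM2 stood at −0.22, NRXN3 and NLGN3 at −0.15, CADM4 at −0.14, NLGN1 at −0.052, NRXN2 at −0.034 and NLGN2 at 0.015. The study tested counts with DESeq2 at an FDR under 0.05. It called many genes for HD* animals against controls and a few for HD* against LD* animals, where these fits of TPM called none. It listed NLGN1 among the genes lower in HD* animals than in controls. Its count model was not fitted here, because the values are TPM. The median over all genes was −0.12, and −0.0067 after TMM rescaling. For HD* animals against controls these shares were 5.29% lower and 0.396% higher, and 1.72% lower and 1.93% higher after TMM rescaling. The intervals leave room for sizeable differences in the variable genes, from −0.70 to 0.80 for CADM3 and from −0.75 to 0.45 for NRXN3, and less in NRXN2 (−0.31 to 0.24).

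The groups overlapped throughout. CADM3 ran over 126, 299 and 665 TPM in controls (lowest, median and highest), over 161, 429 and 624 TPM in LD* and over 157, 413 and 634 TPM in HD* animals. NRXN3 ran over 19.0, 39.3 and 63.7 TPM in controls, over 19.0, 48.6 and 66.3 TPM in LD* and over 15.5, 45.2 and 55.2 TPM in HD* animals. CADM1 averaged 102 ± 22.1 TPM for controls, 111 ± 31.3 TPM for LD* and 87.4 ± 21.4 TPM for HD* animals (SD, n = 8 each). For HD* against LD* animals CADM1 had the largest difference of the 9 (−0.33, SE 0.19, adjusted p = 0.937). LD* animals against controls gave values from −0.13 (CADM4) to 0.23 (CADM3). Without Control 6 the counts stayed at 0 of 9, NRXN2 (0.011), NLGN2 (−0.037) and CADM3 (−0.028) changed sign for HD* against controls, and CADM4 moved from −0.14 to −0.041. NLGN1 moved from −0.052 to −0.15 for HD* against controls. For LD* animals against controls NLGN1 moved from 0.14 to 0.036, CADM1 from 0.101 to 0.028, CADM3 from 0.23 to 0.15, CADM4 from −0.13 to −0.024 and NLGN2 from 0.060 to 0.0075. Both comparisons use the same controls.

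Set apart by category, the means of HD and VHD animals lay on opposite sides of the control mean for 8 of the 9 genes. This fit was added after the values above were seen. Both categories are compared with the same 8 controls. HD animals were above controls for 8 of 9 genes, where 6192 of the 13637 genes tested were above. Among the 8, CADM1 stood at 0.0031 (SE 0.22), close to 0, and CADM4 was below controls at −0.088. Without Control 6 both changed sign in HD animals, CADM1 to −0.070 and CADM4 to 0.016. VHD animals were below controls for 9 of 9, where 10623 of the genes tested were below. The medians over all genes were −0.028 for HD and −0.21 for VHD animals, and TMM rescaling was not applied to this fit. At an adjusted p under 0.05 there were 0 of 9 and 0% of all genes in each. At an unadjusted p under 0.05, CADM3 was higher in HD animals (0.83, SE 0.36, adjusted p = 0.582, where 2.23% of all genes were higher and 5.54% lower). In VHD animals 4 of 9 were lower, where 23.2% of all genes were lower and 2.93% higher. These were NRXN2 (−0.32), NRXN3 (−0.69), NLGN3 (−0.50) and CADM2 (−0.54), with adjusted p from 0.155 to 0.169. Without Control 6, 7 of 9 were lower in VHD animals at an unadjusted p under 0.05, where 26.2% of all genes were, and in HD animals NRXN2 (0.29, adjusted p = 0.73) took the place of CADM3 (0.75, adjusted p = 0.73).

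Daily intake was also taken as a continuous measure within the 16 drinkers, with group as a covariate because the intakes of LD* and HD* animals did not overlap. All 9 slopes were negative, from −0.65 (NRXN3) to −0.12 (CADM4) log2 units per g/kg, with a median of −0.39 against −0.11 over all genes. At an adjusted p under 0.05, 0 of 9 genes and 0% of all genes passed (limma). At an unadjusted p under 0.05 there were 2 of 9, CADM1 (−0.51, SE 0.22, adjusted p = 0.498) and NRXN2 (−0.37, SE 0.15, adjusted p = 0.498), where 5.51% of all genes were lower and 2.6% higher with intake. With cohort as a covariate 6 of 9 stood at an unadjusted p under 0.05, where 11.8% of all genes were lower, and under TMM rescaling 1 of 9, CADM1, where 4.52% of all genes were lower and 4.97% higher, with CADM4 changing sign to 0.0099. The slopes share the HD and VHD animals with the comparison above, and the VHD animals had the higher intakes.

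**Figure D3:**
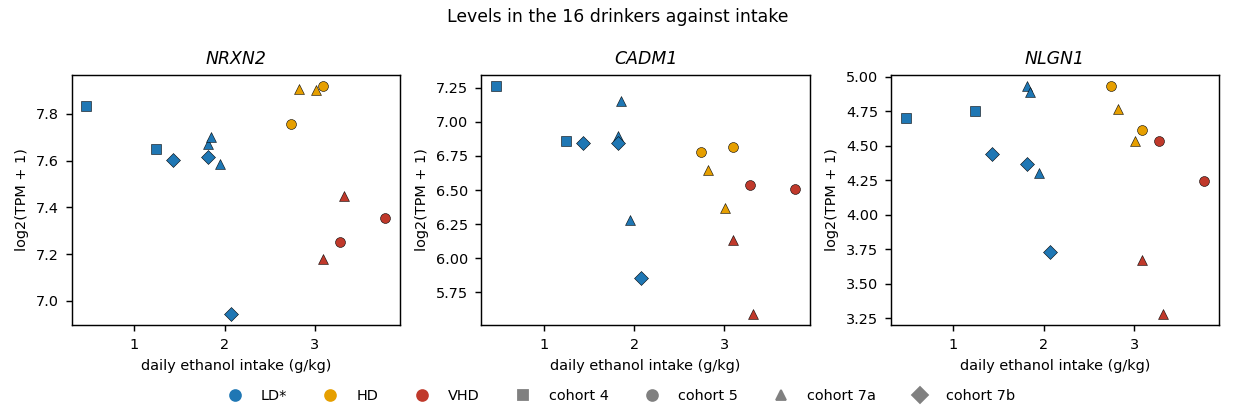
Log2(TPM + 1) of NRXN2, CADM1 and NLGN1 (vertical axes) in the 16 drinkers against daily ethanol intake in g/kg (horizontal axes), with colours for categories and shapes for cohorts. The HD and VHD animals separate between 2.74 and 3.78 g/kg, with VHD lower for NRXN2 and NLGN1, and the LD* animal with the highest intake, LD 5 at 2.07 g/kg, is the lowest of its group for all 3 genes.

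Within each group the correlation with intake was negative for all 9 genes. Pearson's r ran from −0.63 (CADM1) to −0.15 (CADM2) in LD* animals and from −0.59 (NRXN2) to −0.17 (CADM4) in HD* animals. Of the 18 relations computed 0 passed the Benjamini-Hochberg adjustment. The strongest rank relation was NLGN1 in HD* animals, with Spearman's rho of −0.81 (exact permutation, p = 0.018, adjusted p = 0.278) and r of −0.46 (exact permutation, p = 0.248, adjusted p = 0.463). Without the 2 animals farthest from the median intake its r was −0.60. For CADM4 in HD* animals r turned from −0.17 to 0.065 without the 2 animals farthest from the median intake.

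Cohorts were compared with group as a covariate, and 0 of 9 genes and 0% of all genes passed at an adjusted p under 0.05 (limma). CADM1 alone of the 9 stood at an unadjusted p under 0.05 (adjusted p = 0.54), where 8.36% of all genes did, and without Control 6 none of the 9 did. It averaged 134 ± 26.4 TPM in cohort 4 (n = 2), 109 ± 14.2 in cohort 5 (n = 7), 91.4 ± 29.5 in cohort 7a (n = 9) and 90.8 ± 23.5 in cohort 7b (n = 6). Cohort 4 held LD* animals alone. The HD* difference from controls was also compared between cohorts 5 and 7a, and 0 of 9 and 0% of all genes passed. Control 6 is in neither cohort. The HD* difference of CADM4 was 0.22 in cohort 5 and −0.32 in cohort 7a, a difference between cohorts of −0.54 (SE 0.25, adjusted p = 1.00). It was the 1 gene of the 9 at an unadjusted p under 0.05, where 1.72% of all genes were lower and 0.433% higher. For the others, the HD* difference was negative in cohort 5 for 8 of 8 and ranged from −0.36 (CADM1) to 0.25 (CADM3) in cohort 7a.

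Ratios were formed within each animal as differences of log2(TPM + 1). The NLGN1 to NLGN2 ratio sets the neuroligin of excitatory synapses against that of inhibitory synapses, and it averaged −2.74 ± 0.33 for controls, −2.66 ± 0.18 for LD* and −2.81 ± 0.45 for HD* animals (log2, SD, n = 8 each). The NRXN3 to NRXN2 ratio averaged −2.25 ± 0.44, −2.08 ± 0.42 and −2.37 ± 0.50. The 6 differences between groups ranged from −0.28 to 0.17, and each had an adjusted p of 0.742 (exact permutation over 12870 assignments, two-sided). Compared within cohorts, the HD* against LD* difference was −0.47 rather than −0.15 for NLGN1 to NLGN2 (exact permutation over 35 assignments, p = 0.0571, adjusted p = 0.343) and −0.65 rather than −0.28 for NRXN3 to NRXN2 (exact permutation, p = 0.257, adjusted p = 0.495), with cohort 7a alone holding both groups. Without Control 6 the differences from controls were −0.12 (HD*) and 0.028 (LD*) for NLGN1 to NLGN2 and −0.20 and 0.086 for NRXN3 to NRXN2. Between VHD and HD animals the NLGN1 to NLGN2 ratio differed by 0.053 (exact permutation, p = 0.83). The NRXN3 to NRXN2 ratio was −2.63 ± 0.63 in VHD and −2.11 ± 0.055 in HD animals, a difference of −0.52 (exact permutation, p = 0.171).

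Across the 24 animals, 8 of the 9 genes varied together and CADM4 did not vary with them. The 28 pairs without CADM4 had Pearson's r from 0.52 to 0.945, and all 28 passed the adjustment over 36 pairs for r and for rho (100000 permutations). The 8 pairs with CADM4 had r from −0.22 to 0.28, and 0 passed for either. The highest were NLGN2 with CADM3 (r = 0.945, rho = 0.921), NRXN3 with NLGN3 (r = 0.936, rho = 0.882) and NRXN3 with NLGN1 (r = 0.934, rho = 0.899), each with an adjusted permutation p of 2.6e-05 for r and 4e-05 for rho, from the smallest p that the permutations allow. Within cohorts 5, 7a and 7b these 3 pairs had r between 0.73 and 0.98, and without the 2 animals farthest from the median of the first gene between 0.90 and 0.94. The lowest were CADM4 with NLGN2 (r = −0.22, rho = −0.14, adjusted permutation p above 0.05), NLGN1 (r = −0.16, rho = −0.061) and CADM3 (r = −0.14, rho = −0.043). Without Control 6 they were −0.12, 0.085 and −0.033. How many pairs among all genes would pass was not computed. For every member the 3 closest of the 9196 genes searched, given below, lay outside the 9.

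**Figure D4:**
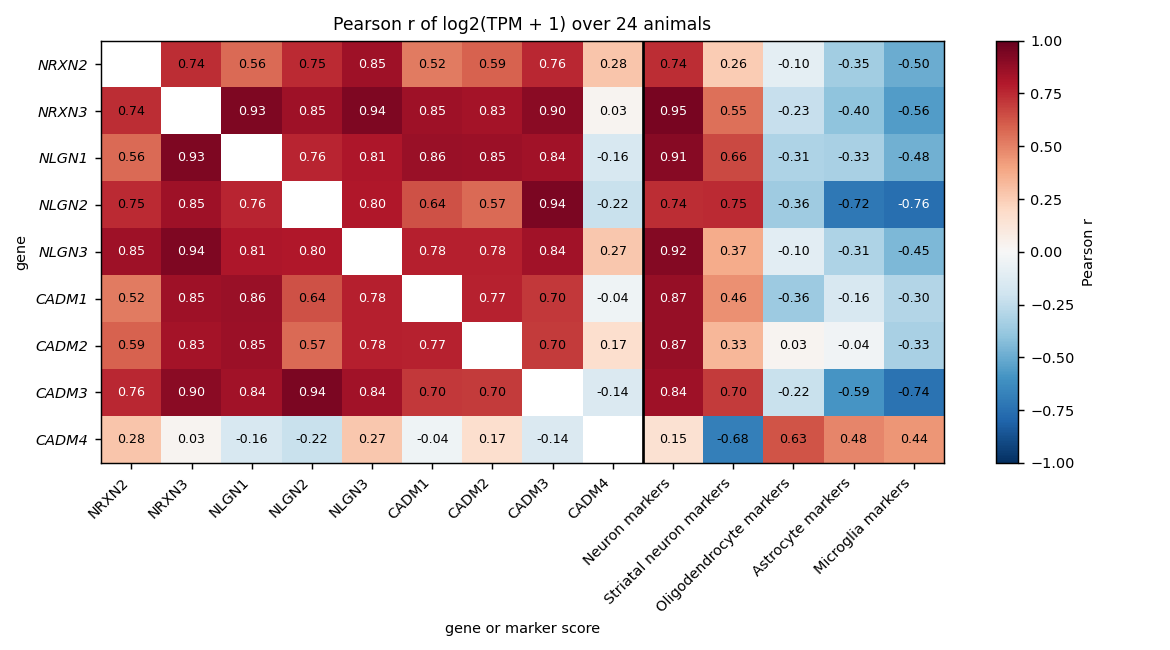
Pearson's r over 24 animals between the 9 genes (rows and the columns left of the line) and between the genes and 5 marker scores (columns right of the line), with colours from −1 to 1. The 28 pairs without CADM4 are all between 0.52 and 0.945. The CADM4 row has values near 0 for genes and 0.63, 0.48 and 0.44 for oligodendrocyte, astrocyte and microglia markers.

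The 9 genes were also set against the cell type markers, over 45 relations computed. How many of all genes would pass with each score was not computed. With the general neuron score, r ran from 0.74 (NRXN2 and NLGN2) to 0.95 (NRXN3) for 8 of the genes, each passing the adjustment for r and rho, and was 0.15 for CADM4 (rho = 0.20, adjusted permutation p = 0.529). With the striatal neuron score the 8 genes had r from 0.26 (NRXN2) to 0.75 (NLGN2). NRXN2, NLGN3 (0.37) and CADM2 (0.33) did not pass for r (adjusted permutation p = 0.276, 0.124 and 0.165), though they did for rho (0.55, 0.62 and 0.45), and without Control 6 their r was 0.72, 0.68 and 0.50. Within cohorts 5, 7a and 7b it was 0.89, 0.92 and −0.45 for NRXN2, 0.82, 0.82 and −0.18 for NLGN3, and 0.64, 0.81 and −0.12 for CADM2. With the general neuron score r of these 8 genes lay between 0.64 and 0.99 within cohorts 5, 7a and 7b, and between 0.72 and 0.93 without the 2 animals farthest from the median score. With the microglia score r was negative for all of these 8 genes. NRXN2 (−0.50), NRXN3 (−0.56) and NLGN1 (−0.48) passed for r and rho. NLGN3 (−0.45) passed for rho alone, and CADM1 (−0.30) and CADM2 (−0.33) for neither. NLGN2 and CADM3 had the strongest inverse relations (r = −0.76 and −0.74, rho = −0.77 and −0.74, adjusted permutation p = 0.00027 and 0.000327). Their r within cohorts 5, 7a and 7b was −0.86, −0.79 and −0.49 for NLGN2 and −0.81, −0.78 and −0.51 for CADM3. With the astrocyte score NRXN3, NLGN1 and NLGN3 passed for rho alone (−0.59, −0.49 and −0.51). There NLGN2 had r = −0.72 and CADM3 r = −0.59, with adjusted permutation p = 0.00045 and 0.0068 (rho = −0.73 and −0.59). Within cohorts 5, 7a and 7b these were −0.97, −0.77 and −0.37 for NLGN2 and −0.92, −0.68 and −0.30 for CADM3.

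Of the glial scores, CADM4 had its highest r with the oligodendrocyte score (r = 0.63, adjusted permutation p = 0.00429, rho = 0.44, adjusted permutation p = 0.0574). Within cohorts 5, 7a and 7b r was 0.94, 0.52 and 0.75, and without the 2 most distant animals 0.54. Control 6 had the highest values of both, and without it r was 0.40. The negative relation of CADM4 to the striatal neuron score (r = −0.68, rho = −0.38) likewise rested on Control 6, without which r was −0.35. Within cohorts 5, 7a and 7b it was −0.45, −0.018 and −0.91, and cohort 7b holds Control 6. CADM4 also rose with the astrocyte score (r = 0.48, adjusted permutation p = 0.030, rho = 0.37, adjusted permutation p = 0.10). With the microglia score r was 0.44 (adjusted permutation p = 0.053, rho = 0.43, adjusted permutation p = 0.059). Without Control 6 these r were 0.41 and 0.43, beside 0.40 for the oligodendrocyte score. All of these relations hold values from the same libraries on both axes.

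**Figure D5:**
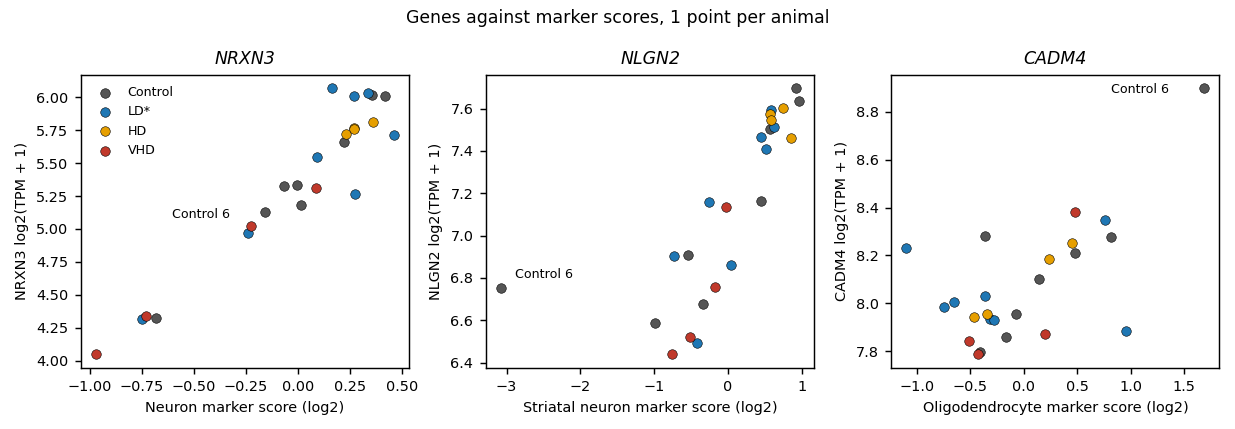
Log2(TPM + 1) of NRXN3, NLGN2 and CADM4 (vertical axes) against the general neuron, striatal neuron and oligodendrocyte marker scores (horizontal axes, mean centred log2), 1 point per animal coloured by category. NRXN3 follows the neuron score with r = 0.95, and Control 6 stands far to the left in the striatal panel and far to the upper right in the CADM4 panel.

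The genes most like each member were sought among genes averaging 10 TPM or more, by Pearson's r of log2(TPM + 1) over the 24 animals and as a description. For NLGN1 they were SLITRK4 (r = 0.978), a synaptic adhesion gene, RPP14 (0.977) and GRIA2 (0.976), an AMPA receptor subunit. NLGN2 was closest to FAM171A1 (0.981), MLF2 (0.971) and RGAG4 (0.968), and NLGN3 to TM9SF4 (0.985), KIAA1967 (0.977) and UBE2O (0.976). NRXN3 was closest to BTRC (0.986), MAP7D2 (0.985) and XPO5 (0.985), and NRXN2, with lower values, to TMEM115 (0.913), OS9 (0.912) and HM13 (0.909). CADM1 was closest to EPC2 (0.971), LPHN2 (0.963), which encodes an adhesion receptor that binds teneurins, and SMARCA2 (0.947). CADM2 was closest to RANBP6 (0.954), TMEM33 (0.953) and MAGI2 (0.952), a synaptic scaffold gene. CADM3 was closest to PTPRN (0.973), a membrane protein of dense-core vesicles, SIK3 (0.971) and VPS26B (0.968). CADM4 was closest to NKX2-2 (0.911), a transcription factor of the oligodendrocyte lineage, DDR1 (0.911) and FYN (0.904), a kinase that acts in myelination.

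Partners of these proteins were taken from 7 lists of 96 genes, of which 92 were tested. At an adjusted p under 0.05, 0 of 92 passed for HD* animals against controls, LD* animals against controls or HD* against LD* animals. The partners with the smallest p for HD* animals against controls were EPB41L2 (−0.25), C1QL2 (0.49) and PPFIA1 (−0.22), each with an adjusted p of 0.706. Without Control 6 these were −0.23, 0.503 and −0.22. For LD* animals against controls they were EPB41L2 (−0.30), the nectin gene PVRL2 (−0.27) and C1QL3 (0.77), with an adjusted p of 1.00, and without Control 6 they were −0.27, −0.15 and 0.45. For HD* against LD* animals they were DLGAP1 (−0.49), C1QL3 (−0.89) and NXPH1 (−0.33), with an adjusted p of 0.937.

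Between VHD and HD animals 23 of 92 partners passed, 22 lower and 1 higher in VHD, with a median log2 fold change of −0.52, where 11.4% of all genes were lower and 3.23% higher. When all 24 animals shared 1 estimate of the spread 0 of 92 passed, as did 0 of all genes. With the general neuron score as a covariate 0 of 92 were lower and 3 higher, where 0.858% of all genes were lower and 1.9% higher. After TMM rescaling 23 were lower and 1 higher, where 10.3% of all genes were lower and 8.58% higher. Of the other ligands and competitors of neurexins 8 of 22 were lower and none higher. They included LRRTM1 (35.4 ± 5.72 TPM in VHD and 69.8 ± 2.82 TPM in HD animals, SD, log2 fold change −0.97, adjusted p = 0.00435, limma), a postsynaptic neurexin ligand. All 3 calsyntenin genes were among them, CLSTN1 (310 ± 72.0 and 612 ± 64.0 TPM, −1.004), CLSTN2 (−1.21) and CLSTN3 (−1.18).

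Of the LAR phosphatases and their partners 6 of 18 were lower, including LRFN3 (−0.88), SLITRK3 (−1.14) and SLITRK5 (−1.05). Of latrophilins, teneurins and FLRTs 4 of 10 were lower, including TENM4 (−1.03). Of the partners inside the presynaptic terminal 1 of 14 was lower and of those inside the postsynaptic density 2 of 16, among them the scaffold gene DLG3 (46.4 ± 10.0 and 96.4 ± 12.9 TPM, −1.05). The 1 partner that was higher in VHD animals was SHANK1, a scaffold of excitatory synapses, at 80.0 ± 20.0 TPM in VHD and 35.4 ± 3.05 TPM in HD animals (1.13, SE 0.18, adjusted p = 0.00514, limma). Of nectins and relatives of CADMs 1 of 5 was lower, and of the proteases that release adhesion proteins 0 of 7 passed, with 4 of 7 lower at an unadjusted p under 0.05, where 24.6% of all genes were lower. The medians were −0.60, −0.65 and −0.66 in the first 3 lists and −0.16 in the postsynaptic list, where the median of all genes was −0.17.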

How the data were processed

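PolyA-selected RNA from the NAcc core of 24 macaques had been sequenced, aligned to the MacaM assembly with STAR 2.5.2b and counted on genes with HTSeq 0.6.1p1 by the authors, who kept uniquely aligned reads and tested counts with DESeq2. Read pairing and strand are described differently in the sources, so reads of overlapping genes may not be told apart. The deposited values were taken as TPM made by the authors, with gene lengths not given in the sources used here: the table is named for DESeq2 normalised counts, but its columns sum to 1 shared total and a read's worth differs between genes. Per the labels, samples averaged 76000000 reads, 70% of them uniquely mapped. The depth of each library cannot be read from TPM, so no counting error is given and no count model was fitted. All 24 columns matched a label, and 0 columns were left unused.

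TPM values were transformed to log2(TPM + 1), so fold changes of low genes are understated, and limma 3.58.1 (R 4.3.3) was run on the 13637 genes averaging 1 TPM or more (empirical Bayes with a trend, Benjamini-Hochberg adjustment over all genes). A model of 3 groups gave HD*, LD* and control comparisons, VHD was set against HD in a model of those 8 animals alone, and models of intake, cohort and cohort by group were fitted as described with each result. Single values were tested by exact permutation or 100000 permutations in Python 3.11.15 (scipy 1.17.1, numpy 2.4.6, pandas 2.3.3, with matplotlib 3.10.9 for the plots). TMM factors were computed from the TPM values, with a 30% trim of log ratios and a 5% trim of mean levels on either side. The tests were tested on simulated data.

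The 9 genes, the partner and marker lists and the tests were chosen with earlier results of these data known. All 9 genes are named in each comparison. From the partner lists the genes passing (at most 10) or the 3 with the smallest p are named, and for likeness the 3 genes with the highest r and the 3 highest and 3 lowest pairs. All 9 symbols occur as protein-coding genes in the RefSeq annotation of T2T-MMU8v2.0, which is not the build the authors used, so no coordinates are given. Alternatives were a pseudocount of 0.1, no filter, a filter of 10 TPM, TMM rescaling, cohort or marker scores as covariates, only the compared groups, shared cohorts alone, and fits without 1 animal. A general neuron marker score as a covariate, 4 categories in 1 fit, the categories against controls, and fits of those categories and of cohorts without Control 6 were added after seeing the data.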

Additional observations from a re-analysis of the deposited data

Results flagged for a closer look

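Of 45 groups of values (9 genes in 5 groups or categories of 4 or 8 animals), 6 held an animal that stood apart from the rest of its group by Dixon's criterion, and chance marks about 1 group in 20. LD 5 had the lowest NRXN2 of the LD* animals, 122.1 TPM against 191 to 227 TPM in the other 7, and the lowest NLGN3, 80.95 TPM against 123 to 157 TPM. LD 5 also had the lowest general neuron score of the LD* animals, −0.75 against at least −0.24, and the highest oligodendrocyte score, 0.96 against at most 0.76, and their part in these values was not tested. Among the HD animals, HD 1 had the lowest NRXN2, 215.5 TPM against 238 to 241 TPM, and the highest CADM2, 32.88 TPM against 21.3 to 23.3 TPM. VHD 2 had the highest CADM4 of its category, 332.1 TPM against 220 to 233 TPM. Control 6 had the highest CADM4 of all 24 animals, 477.0 TPM against 221 to 310 TPM in the other controls, and it was also the animal with the lowest striatal neuron markers and the highest oligodendrocyte markers.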

How the results depend on the processing

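The count of genes that were lower in VHD than in HD animals, 5 of 9, was between 4 and 7 with another pseudocount, other filters, TMM rescaling or cohort as a covariate. It was 0 with striatal neuron and oligodendrocyte scores as covariates (median log2 fold change −0.75 against −0.71, with SEs of 0.80 to 1.59 against 0.12 to 0.26), 1 with the general neuron score, 0 with 4 categories of all 24 animals in the fit, and 2 to 8 when single animals were left out (3 without HD 2, 2 without HD 3, 2 without VHD 3 and 8 without VHD 2); the cause was not tested. Over all genes 1997 passed, 2581 after TMM rescaling (4 of the 9), 2757 with cohort as a covariate (7 of the 9) and 1966 with the other pseudocount (5 of the 9). With no filter 1408 of 17208 passed (5 of the 9), and with a filter of 10 TPM 2186 of 9197 (6 of the 9). With the general neuron score 376 passed, in the other marker and 4-category fits 0, and without 1 animal 476 to 4651. The 0 of 9 in the comparisons of HD*, LD* and controls, intake and cohorts stayed at 0 in every setting tried.

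No value was called in a setting in which its sign changed, though for VHD against HD NLGN2 was called without the scores and NLGN1 and CADM2 with cohort as a covariate (adjusted p = 0.0238 and 0.0456). After TMM rescaling they were NRXN2 (0.093) and NLGN1 (0.067) for HD* against controls, NLGN2 (0.045) and CADM4 (0.073) for HD* against LD* animals, and CADM4 (0.093) for VHD against HD. With cohort as a covariate they were NLGN2 (−0.10) and CADM3 (−0.11) for HD* and CADM2 (0.052) for LD* animals against controls, and CADM4 (0.16) for HD* against LD* animals. In cohorts 5 and 7a alone they were NRXN2 (0.0017), NLGN2 (−0.090) and CADM3 (−0.14) for HD* animals, in cohorts 7a and 7b alone NLGN3 (−0.00079) and CADM2 (0.027) for LD* animals, and in cohort 7a alone NRXN2 (−0.044) for HD* against LD* animals. With the general neuron score they were NRXN2 (0.015) and NLGN1 (0.062) for HD* and NLGN3 (−0.022) for LD* animals against controls, NLGN2 (0.085), CADM2 (0.040) and CADM3 (0.077) for HD* against LD*, and NLGN1 (0.053), CADM1 (0.13), CADM2 (0.11) and CADM4 (0.24) for VHD against HD. With striatal neuron and oligodendrocyte scores they were NLGN2 (−0.13) and CADM3 (−0.16) for HD*, NLGN2 (−0.056), NLGN3 (−0.0018) and CADM1 (−0.015) for LD* animals against controls, and NLGN2 (0.37, against −0.83 without the scores) for VHD against HD.

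When single animals were left out, HD* against controls ranged from −0.087 to 0.025 for NRXN2, −0.30 to 0.017 for NRXN3, −0.20 to 0.097 for NLGN1, −0.060 to 0.11 for NLGN2 and −0.15 to 0.21 for CADM3. It kept its sign from −0.30 to −0.11 for CADM1, −0.32 to −0.079 for CADM2, −0.22 to −0.048 for NLGN3 and −0.199 to −0.041 for CADM4. LD* against controls ranged from −0.10 to 0.042 for NRXN2, −0.032 to 0.29 for NRXN3, −0.0051 to 0.25 for NLGN1, −0.016 to 0.16 for NLGN2 and −0.039 to 0.13 for NLGN3. HD* against LD* ranged from −0.076 to 0.073 for NRXN2, −0.14 to 0.054 for NLGN2, −0.20 to 0.039 for CADM2 and −0.067 to 0.027 for CADM4. The HD* against control ratios ranged from −0.20 to 0.029 for NLGN1 to NLGN2 and from −0.21 to 0.031 for NRXN3 to NRXN2. No paired analysis was possible because the labels carry no replicate numbers that groups share. The depth of a library cannot be read from TPM values, so precision rests on the spread between animals.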
